A study of Mus musculus with 21 samples.

Results

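The interferon-gamma-induced GTPases are proteins of 2 related families, the immunity-related GTPases (IRGs) and the guanylate-binding proteins (GBPs). The 10 genes described are Irgm1, Irgm2, Igtp, Iigp1, Tgtp1 and Tgtp2 of the IRG family and Gbp2, Gbp3, Gbp6 and Gbp7 of the GBP family. They were chosen by gene name from a table of 45706 genes, with earlier results of these data known. They fill 11 rows of it because the name Gbp6 stands at 2 gene IDs. Their mRNA was measured by RNA-seq in 21 libraries of Myc-CaP, a line of prostate carcinoma cells from a mouse that carried a Myc transgene under a prostate promoter, and of tumours grown from those cells in FVB mice. The tumour groups were KO1, KO2 and KO3 (3 libraries each) and WT (4 libraries), and the cell groups were KO1, KO2, KO3 and WT (2 libraries each). KO1, KO2 and KO3 are 3 lines in which Ern1, the gene of the endoplasmic reticulum stress sensor IRE1α, was targeted by CRISPR-Cas9 with the same guide. WT is the Myc-CaP line with an intact Ern1. Every group therefore carries the Myc transgene, and the edit is in the tumour cells and not in the cells of the host. The WT side is 1 line, whether each KO line is 1 clone is not given in the sources used here, and the age and sex of the mice are likewise not given.

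Interferon-gamma binds a receptor made of IFNGR1 and IFNGR2, and the kinases JAK1 and JAK2 then pass the signal on to genes that carry a DNA element called the gamma-activated site (GAS). The signal also induces IRF1, which binds the interferon-stimulated response element (ISRE). In mice the IRG proteins of the GKS class (Iigp1, Tgtp1 and Tgtp2) and the GBPs assemble on the vacuoles of intracellular parasites and bacteria and break them open, and the IRG proteins of the GMS class (Irgm1, Irgm2 and Igtp) sit on the cell's own membranes and hold the GKS proteins inactive there. Type I interferons also induce many of these genes, and macrophages, other leukocytes, endothelium and epithelium can all express them.

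Some of these genes share sequence, and how their reads were split is then an estimate. Positions are from GENCODE M21 on GRCm38. Tgtp1 (ENSMUSG00000078922, chr11:48985327-48994172, minus strand) and Tgtp2 (ENSMUSG00000078921, chr11:49057194-49064206, minus strand) are neighbours, and 79.4% of the 50-base windows of the Tgtp1 transcripts also occur in Tgtp2, with 85.8% the other way. Igtp (ENSMUSG00000078853, chr11:58199556-58207591, plus strand) lies inside the span of Irgm2 (ENSMUSG00000069874, chr11:58199618-58222782, plus strand) for most of its length, and their exons overlap over 162 bases. Of the windows of Igtp 11.8% occur in Irgm2, and of those of Irgm2 6.79% occur in Igtp. The symbol Gbp6 belongs to ENSMUSG00000104713 (chr5:105270702-105293698, minus strand) and, in the deposited table, also to ENSMUSG00000079362. GENCODE M21 calls the second ID Gm43302, a locus at chr5:105214907-105293695 that runs over both Gbp10 and Gbp6, and it is written Gbp6 (Gm43302) here. All of its windows are shared, 93.0% with Gbp6 and 64.7% with Gbp10, so neither row gives a level of Gbp6 alone. Gbp7 (ENSMUSG00000040253, chr3:142530342-142550149, plus strand) shares 12.7% of its windows, 10.5% with Gm43802, and it was not tested summed with that gene. The other genes share few windows: Irgm1 (ENSMUSG00000046879, chr11:48861968-48871683, minus strand) 0.31%, Iigp1 (ENSMUSG00000054072) 1.69%, Gbp2 (ENSMUSG00000028270, chr3:142620602-142638008, plus strand) 2.03% and Gbp3 (ENSMUSG00000028268, chr3:142560026-142573209, plus strand) 3.75%.

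The promoters of these genes share short motifs. RefSeq promoters of the GRCm38.p6 build, from 250 bases before to 50 bases after a gene's start, were at hand for 8 of the 10 symbols. They were searched on both strands for a GAS, written TTCNNNGAA, and an ISRE, written as GAAA, any 2 bases and GAAA again, motifs that do not overlap each other in any promoter printed here. The 8 symbols have 9 promoters, as Gbp3 has a second one, which held neither motif. All 8 symbols had an ISRE match in a promoter, which 3.44% of the 32851 promoters in the same table hold. Of the symbols 5 also had a GAS match, a pair that 0.454% of the promoters hold. In Tgtp1, Tgtp2, Igtp and Irgm2 the GAS ended 2 bases before the ISRE, and a GAS and an ISRE within 10 bases of each other occur in 22 promoters, or 0.067%. The 250 bases before the start are printed for these 4 genes, for Gbp7, in which the motifs are 25 bases apart, and for Irgm1, which has overlapping ISRE matches and no GAS match. Each is written 5′ to 3′ in the direction of its gene, and capitals mark the matches. The ISRE of Gbp7 is a match on the opposite strand. The stretches lie at chr11:48992247-48992496 for Tgtp1 (minus strand), chr11:49064213-49064462 for Tgtp2 (minus strand), chr11:58199306-58199555 for Igtp (plus strand), chr11:58214727-58214976 for Irgm2 (plus strand), chr3:142530086-142530335 for Gbp7 (plus strand) and chr11:48871421-48871670 for Irgm1 (minus strand).
Tgtp1: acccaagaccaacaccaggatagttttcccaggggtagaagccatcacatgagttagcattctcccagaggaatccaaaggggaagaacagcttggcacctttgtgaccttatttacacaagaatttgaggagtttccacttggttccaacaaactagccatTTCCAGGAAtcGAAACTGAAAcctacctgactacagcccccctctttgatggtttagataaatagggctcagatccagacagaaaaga
Tgtp2: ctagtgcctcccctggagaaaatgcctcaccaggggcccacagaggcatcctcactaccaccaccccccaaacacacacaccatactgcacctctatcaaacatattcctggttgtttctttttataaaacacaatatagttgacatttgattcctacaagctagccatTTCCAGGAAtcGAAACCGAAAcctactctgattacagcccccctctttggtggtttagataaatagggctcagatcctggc
Igtp: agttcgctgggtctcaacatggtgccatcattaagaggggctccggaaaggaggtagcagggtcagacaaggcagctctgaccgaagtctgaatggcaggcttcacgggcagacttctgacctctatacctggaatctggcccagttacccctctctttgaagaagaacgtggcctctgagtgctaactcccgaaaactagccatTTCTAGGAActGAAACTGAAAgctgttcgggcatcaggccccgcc
Irgm2: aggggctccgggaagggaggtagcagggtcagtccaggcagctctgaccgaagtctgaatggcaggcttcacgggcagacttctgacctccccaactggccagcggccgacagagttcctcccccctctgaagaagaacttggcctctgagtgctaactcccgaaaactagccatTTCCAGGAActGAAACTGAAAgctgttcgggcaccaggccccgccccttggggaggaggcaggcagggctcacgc
Gbp7: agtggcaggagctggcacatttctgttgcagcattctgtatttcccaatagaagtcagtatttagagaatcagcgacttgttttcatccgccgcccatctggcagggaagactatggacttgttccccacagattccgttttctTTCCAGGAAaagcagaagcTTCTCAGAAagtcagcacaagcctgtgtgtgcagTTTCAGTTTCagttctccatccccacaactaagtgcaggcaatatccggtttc
Irgm1: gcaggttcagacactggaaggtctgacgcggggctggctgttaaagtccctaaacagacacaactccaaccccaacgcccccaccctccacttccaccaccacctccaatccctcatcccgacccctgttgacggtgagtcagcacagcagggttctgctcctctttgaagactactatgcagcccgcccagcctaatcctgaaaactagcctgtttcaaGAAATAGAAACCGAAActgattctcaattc
In Tgtp1 the GAS match lies at positions -88 to -80 from the start and the ISRE match at -77 to -68. In Igtp they lie at -45 to -37 and -34 to -25. Over 44 bases around the motif pair Igtp and Irgm2 were 97.7% identical and Tgtp1 and Tgtp2 84.1% identical, against 72.7% to 75.0% between the pairs of genes. The letters that every match must hold are among these bases, so part of each identity was fixed by the choice of genes. The start of Irgm2 in RefSeq lies inside the span that GENCODE M21 gives the gene, downstream of Igtp. Gbp2 and Gbp3 had ISRE matches alone. A match is a run of letters, and binding was not measured.

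Total counts ran from 15994285 to 27497796 in tumours and from 18105538 to 25068254 in cells. Levels are given as CPM, counts scaled to a common library size. Ern1 mRNA was present throughout, at 60.3 to 92.0 CPM in KO tumours and 64.6 to 84.0 CPM in WT tumours, and at 171 to 196 CPM in KO cells and 118 to 133 CPM in WT cells, and counts over a whole gene cannot show a small edit. The log2 fold change of Ern1 was 0.03 ± 0.12 in tumours and 0.56 ± 0.09 in cells (SE; adjusted p 0.914 and 0.00341 by edgeR). In the tumour RNA, markers of macrophages, endothelium and fibroblasts were present. In cells all 7 markers of natural killer (NK) and cytotoxic cells were at 0 in every library, the macrophage markers summed to 1.56 to 2.42 CPM in KO cells and 2.47 to 2.58 CPM in WT cells, and of the carcinoma markers Epcam was at 0 while the list summed to 2630 to 2971 CPM in KO cells and 2800 to 2939 CPM in WT cells. WT tumour 1 stood apart by its neutrophil markers, which summed to 216 CPM, against 2.04 to 4.41 CPM in the other WT tumours and 3.06 to 8.5 CPM in KO tumours, and by its skeletal muscle markers, which summed to 3953 CPM, against 1.10 to 873 CPM in KO tumours and 0.898 to 46.9 CPM in the other WT tumours.

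Per length, Tgtp1 had the highest mean of the 11 rows in each genotype, in tumours and in cells alike. Its level was 17.4 CPM per kilobase of exon in KO tumours and 8.44 in WT tumours, and 25.3 in KO cells and 55.8 in WT cells. In KO1 tumours taken alone Igtp was higher, at 10.5 against 9.81 for Tgtp1. In tumours the levels per kilobase of Igtp (10.0 in KO tumours and 6.05 in WT tumours), Irgm1 (8.10 in KO tumours and 5.07 in WT tumours), Gbp2 (6.23 in KO tumours and 4.6 in WT tumours) and Irgm2 (6.22 in KO tumours and 3.83 in WT tumours) came next. Each neighbour in that order overlapped the next one over single libraries in both genotypes. Lower down in KO tumours stood Tgtp2, Iigp1, Gbp7 and Gbp3 at 2.53 to 3.84 CPM per kilobase, followed by Gbp6 (Gm43302) at 0.906 and Gbp6 at 0.150. In cells the order was steeper. Irgm1 followed Tgtp1 at 9.32 CPM per kilobase in KO cells and 9.02 in WT cells, with no overlap between the libraries of these genes, and Igtp followed at 2.89 in KO cells and 2.99 in WT cells. Irgm2 came next at 1.10 in KO cells and 1.43 in WT cells, and every other row averaged below 1 CPM per kilobase.

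**Figure D1:**
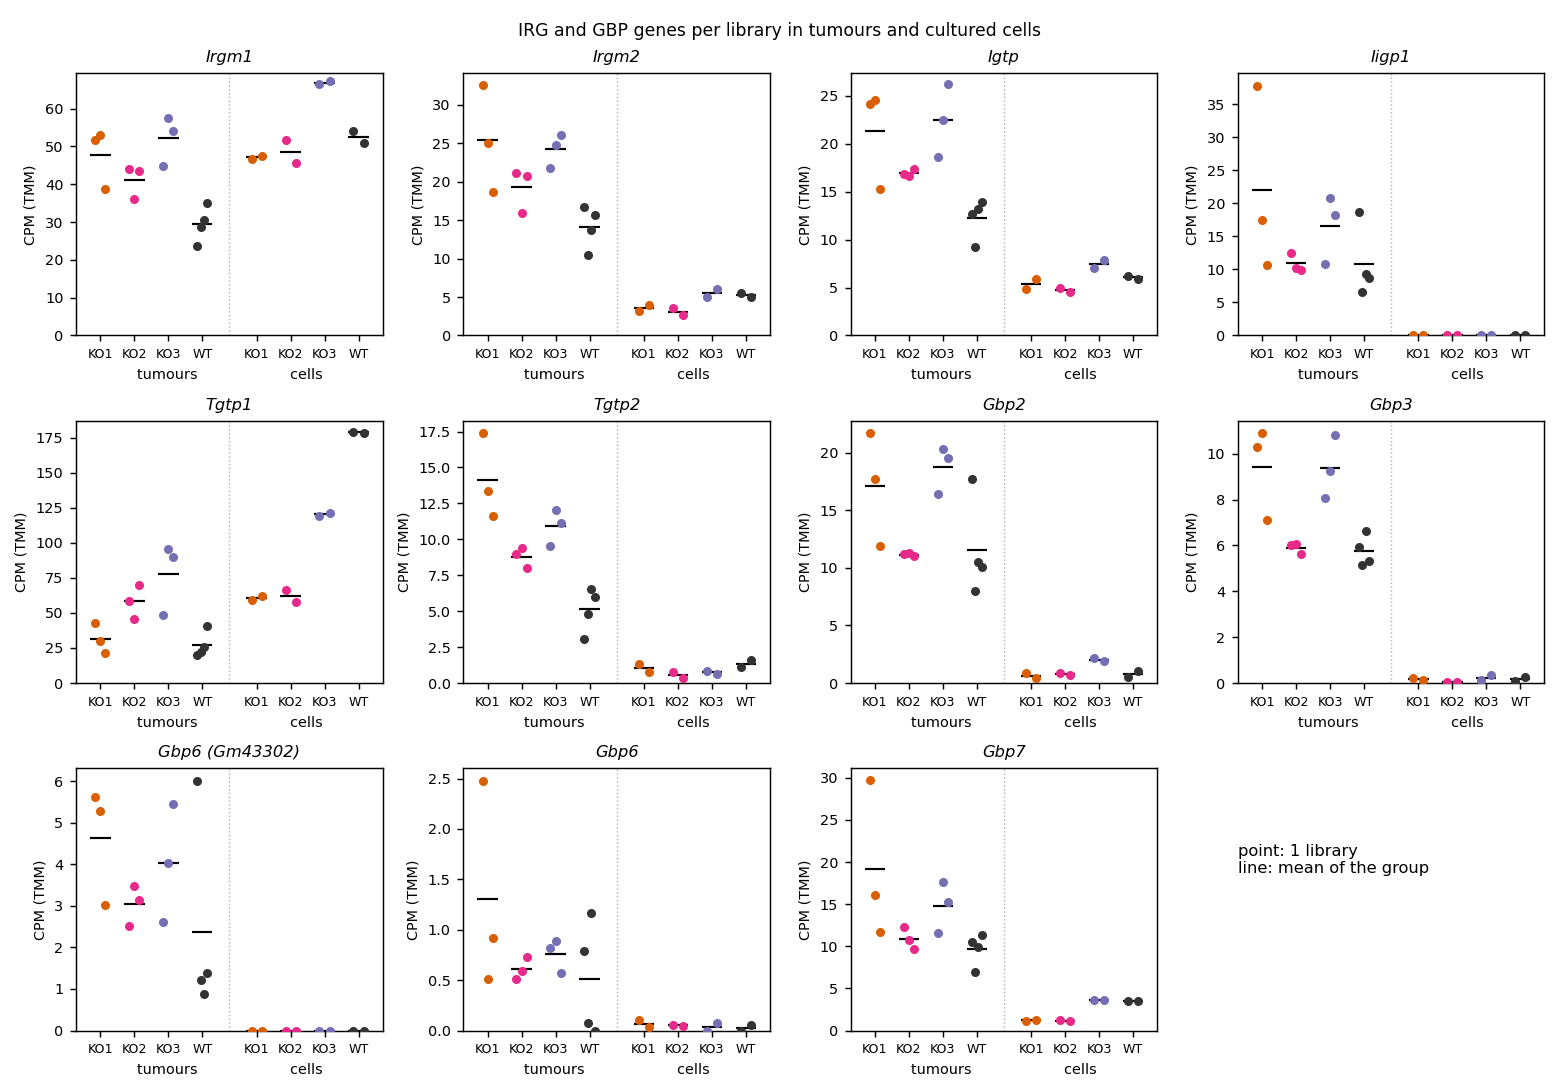
Level of each row as CPM (TMM scaling over all libraries) on a linear axis that starts at 0 and differs between panels. Each point is 1 library and each line the mean of its group, with tumours left of the dotted line and cells right of it; Irgm1 and Tgtp1 reach levels in cells that lie within or above their range in tumours, while Iigp1 and Gbp6 (Gm43302) lie at or near 0 in every cell library.

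KO tumours were first set against WT tumours, to see what changes in a tumour when its cancer cells lack IRE1α. All 4 rows that passed the test were higher in KO tumours, and all 3 GMS-class genes, Irgm1, Irgm2 and Igtp, were among them, together with the GKS-class gene Tgtp2. No row was lower. Tumour RNA mixes host and cancer cells, so more cells that express a gene and more RNA per cell cannot be told apart. The log2 fold change was above 0 in all 11 rows. The threshold was an adjusted p of 0.05 by edgeR's quasi-likelihood test over 14200 genes, of which 1.28% were higher and 2.37% lower, and 3.65% passed in either direction. The median log2 fold change was 0.69 over the 11 rows and 0.00 over all genes tested. Because the rows were chosen with earlier results known, these shares and medians describe them and do not test the list.

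Irgm1, a regulator on the Golgi, lysosomes and mitochondria in mouse cells, was at 51.8, 52.9 and 38.8 CPM in KO1 tumours, 44.1, 36.1 and 43.4 CPM in KO2 tumours and 44.8, 57.6 and 54.0 CPM in KO3 tumours, against 23.7, 28.6, 30.5 and 35.1 CPM in WT tumours. Every KO tumour was above every WT tumour, and the closest 2 libraries were a KO2 tumour and WT tumour 4. The log2 fold change was 0.65 ± 0.14 (SE; 9 KO and 4 WT tumours), with an adjusted p of 0.0239 by edgeR. Igtp, a regulator on the endoplasmic reticulum and lipid droplets that is also called Irgm3, was at 24.1, 24.5 and 15.3 CPM in KO1 tumours, 16.9, 16.6 and 17.3 CPM in KO2 tumours and 18.7, 22.5 and 26.3 CPM in KO3 tumours, against 12.7, 9.18, 13.2 and 13.9 CPM in WT tumours. The groups again did not overlap, and the log2 fold change was 0.71 ± 0.16 (SE), adjusted p 0.0314 by edgeR. Irgm2, a regulator on the Golgi, was at 32.6, 25.1 and 18.6 CPM in KO1 tumours, 21.2, 15.9 and 20.7 CPM in KO2 tumours and 21.8, 24.8 and 26.1 CPM in KO3 tumours, against 16.8, 10.4, 13.7 and 15.6 CPM in WT tumours. A KO2 tumour lay below WT tumour 1, and the log2 fold change was 0.69 ± 0.17 (SE), adjusted p 0.0396 by edgeR. With Igtp and Irgm2 counted as 1 gene the log2 fold change was 0.70 ± 0.16 (SE), adjusted p 0.0287 by edgeR. The call of the pair thus does not rest on how their reads were divided. A sum cannot show whether the call of either gene alone does. Irgm2 made up 52.1% to 54.3% of the pair in the 3 KO tumour groups and 53.5% in WT tumours.

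Tgtp2, an effector of the GKS class, was at 17.4, 13.4 and 11.6 CPM in KO1 tumours, 9.0, 9.40 and 7.99 CPM in KO2 tumours and 9.55, 12.1 and 11.1 CPM in KO3 tumours, against 3.08, 4.82, 6.57 and 6.0 CPM in WT tumours. The groups did not overlap, and the log2 fold change was 1.12 ± 0.23 (SE), adjusted p 0.0226 by edgeR. Its neighbour Tgtp1 was at 43.1, 29.8 and 21.5 CPM in KO1 tumours, 58.8, 45.5 and 70.2 CPM in KO2 tumours and 48.4, 95.8 and 90.0 CPM in KO3 tumours, against 20.1, 22.1, 25.6 and 40.4 CPM in WT tumours. KO1 tumours overlapped WT tumours while KO2 and KO3 tumours were above all of them, and the log2 fold change of 1.03 ± 0.36 (SE) missed the threshold, with an adjusted p of 0.128 by edgeR. The summed pair had a log2 fold change of 1.04 ± 0.30 (SE) and an adjusted p of 0.0671 by edgeR, so the call of Tgtp2 is lost when the 2 genes are counted as 1. Iigp1, a GKS-class effector, was at 37.8, 17.4 and 10.7 CPM in KO1 tumours, 12.5, 10.2 and 9.97 CPM in KO2 tumours and 10.9, 20.7 and 18.3 CPM in KO3 tumours, against 18.7, 6.52, 9.30 and 8.62 CPM in WT tumours. WT tumour 1 lay among the higher KO tumours, and the log2 fold change was 0.61 ± 0.36 (SE), adjusted p 0.372 by edgeR.

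None of the 5 GBP rows passed the test. Gbp2, a GBP that carries a lipid anchor, was at 21.7, 17.7 and 11.9 CPM in KO1 tumours, 11.2, 11.3 and 11 CPM in KO2 tumours and 16.4, 20.4 and 19.6 CPM in KO3 tumours, against 17.8, 7.96, 10.5 and 10.1 CPM in WT tumours. WT tumour 1 was above all KO2 tumours, and the log2 fold change was 0.43 ± 0.23 (SE), adjusted p 0.317 by edgeR. Gbp7, a GBP tied to oxidative defence in mouse macrophages, was at 29.7, 16.1 and 11.7 CPM in KO1 tumours, 12.3, 10.7 and 9.71 CPM in KO2 tumours and 11.5, 17.7 and 15.3 CPM in KO3 tumours, against 10.5, 7.01, 9.96 and 11.4 CPM in WT tumours. Its log2 fold change was 0.61 ± 0.26 (SE), adjusted p 0.218 by edgeR, and KO2 tumours lay in the WT range but for 1 library above it. Gbp3 was at 5.64 to 10.9 CPM (median 8.07 CPM) in KO tumours and 5.15 to 6.62 CPM in WT tumours, with a log2 fold change of 0.50 ± 0.19 (SE) and an adjusted p of 0.165 by edgeR. Gbp6 (Gm43302) was at 2.51 to 5.62 CPM (median 3.49 CPM) in KO tumours and at 6.01, 1.22, 0.887 and 1.39 CPM in WT tumours 1 to 4, so that WT tumour 1 was the highest of all and the other WT tumours were below every KO tumour. Its log2 fold change was 0.72 ± 0.42 (SE), adjusted p 0.364 by edgeR. The row Gbp6 was below 1 CPM in every tumour but KO1 tumour 1 (2.48 CPM) and WT tumour 3 (1.16 CPM), and its log2 fold change was 0.77 ± 0.69 (SE), adjusted p 0.567 by edgeR.

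All 9 KO tumours were above all 4 WT tumours in Irgm1, Igtp and Tgtp2, or 3 of 11 rows, and 1.9% of the genes tested had that pattern. The calls depended on the WT tumours. Without WT tumour 1, 2, 3 or 4 the number of rows higher by edgeR was 2, 0, 1 and 3. Without WT tumour 1 they were Tgtp2 and Gbp6 (Gm43302), the last at a log2 fold change of 1.68 with an adjusted p of 0.0154, and without WT tumour 3 it was Tgtp2. Irgm2 was also lost without any one of KO1 tumour 2, KO2 tumours 1 and 3 and KO3 tumours 2 and 3. With libraries summed per line no row passed. WT tumours 3 and 4 carry a common number in their labels, and whether both came from 1 animal is not given in the sources used here. With these libraries summed, Irgm1 and Tgtp2 passed, with adjusted p of 0.0368 and 0.0357 by edgeR, and Irgm2 and Igtp did not, with 0.0727 and 0.0532.

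Single markers of some other cells differed too, and most marker lists held no call. None passed by edgeR of the leukocyte (4 tested), endothelium (6), fibroblast (6) and dendritic cell (3) markers. Their median log2 fold changes were 0.06, -0.01, 0.24 and 0.54. None of the carcinoma (4 tested) and skeletal muscle (5) markers passed either. Of all genes tested 1.28% were higher and 2.37% lower. The NK and cytotoxic markers Gzmb and Klrk1 were higher in KO tumours, by 2.09 ± 0.46 and 1.49 ± 0.39 on the log2 scale (SE; adjusted p 0.0258 and 0.0491 by edgeR), and they were 2 of 4 tested of 7 markers. The list summed to 1.55 to 8.03 CPM in KO tumours and 1.41 to 2.36 CPM in WT tumours, and no marker was at 0 in every tumour of a genotype. The 8 T cell markers summed to 2.30 to 6.71 CPM in KO tumours and 1.49 to 2.81 CPM in WT tumours, and neither of the 2 tested passed by edgeR, with 1 at an unadjusted p under 0.05. The 9 macrophage markers summed to 549 to 1282 CPM in KO tumours and 377 to 1125 CPM in WT tumours, and none of the 9 passed by edgeR, with 4 at an unadjusted p under 0.05. The part of these cells in the higher GTPase levels was not tested. Of 5 neutrophil markers 1 of 3 tested was lower in KO tumours, S100a9 at a log2 fold change of -5.71 ± 1.10 (SE), adjusted p 0.0160 by edgeR. The neutrophil sum was 3.06 to 8.5 CPM in KO tumours, and of the WT tumours WT tumour 1 alone, at 216 CPM, was above that range.

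**Figure D2:**
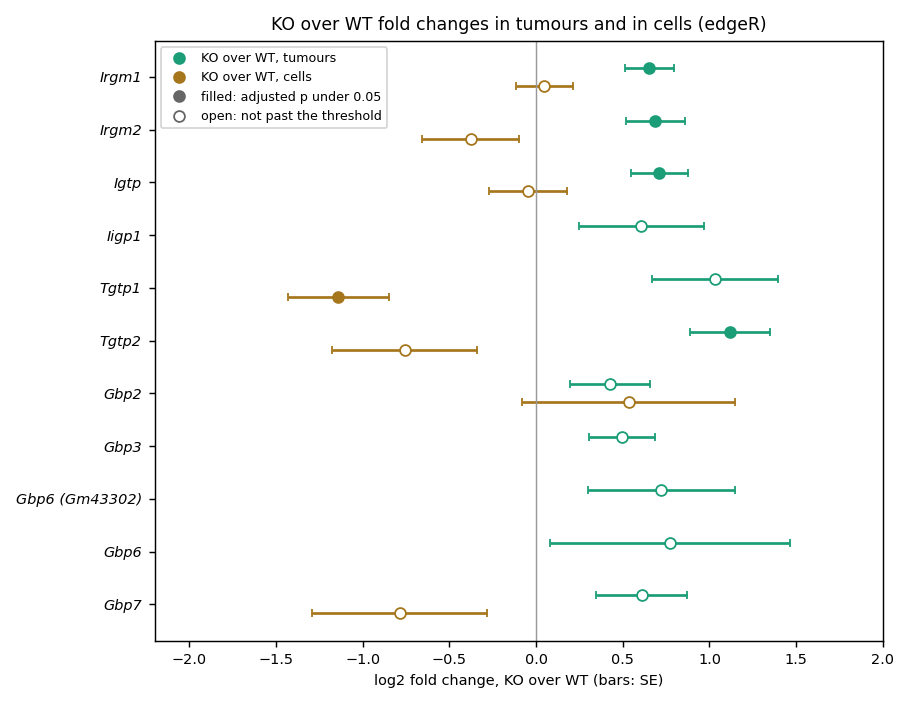
Log2 fold change of each row, KO over WT, with its standard error, in tumours and in cells. Filled points had an adjusted p under 0.05 (edgeR); all 11 tumour values lie right of 0 and 4 of them are filled, while in cells 7 rows were tested and the filled point is Tgtp1, left of 0.

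In cultured cells 7 of the 11 rows passed the filter on low counts, and Tgtp1 was the 1 row that passed the test, lower in KO cells. Of the 12254 genes tested, 9.76% were lower and 4.99% higher, and 14.8% passed in either direction, and the median log2 fold change was -0.38 over the 7 rows and 0.02 over all genes. Tgtp1 was at 59.0 and 62.3 CPM in KO1 cells, 66.3 and 58.1 CPM in KO2 cells and 119 and 121 CPM in KO3 cells, against 179 and 179 CPM in WT cells. Replicates of a line lay close together, KO3 stood between the other KO lines and WT, and every KO library was below both WT libraries, a pattern that 19.3% of the genes tested had. The log2 fold change was -1.14 ± 0.29 (SE; 6 KO and 2 WT libraries), adjusted p 0.0298 by edgeR. Tgtp2 took 1.69%, 0.855% and 0.617% of the Tgtp reads in KO1, KO2 and KO3 cells and 0.747% in WT cells, so the summed pair gave nearly the same log2 fold change, -1.14 ± 0.29 (SE), adjusted p 0.0289 by edgeR. The call of Tgtp1 was lost without WT cells 1, WT cells 2, KO1 cells 2 or KO2 cells 1, with a largest adjusted p of 0.201 by edgeR. It was also lost with libraries summed per line, without line KO1 and without line KO2.

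The other 6 rows tested in cells did not pass for the pooled KO lines. Irgm1 was at 46.8 and 47.4 CPM in KO1 cells, 51.6 and 45.6 CPM in KO2 cells and 66.4 and 67.2 CPM in KO3 cells, against 54.0 and 50.8 CPM in WT cells, a log2 fold change of 0.05 ± 0.17 (SE), adjusted p 0.867 by edgeR. KO3 lay above WT and the other KO lines at or below it. Irgm2 was at 2.66 to 5.98 CPM in KO cells and 5.04 to 5.54 CPM in WT cells, and Igtp was at 4.51 to 7.85 CPM in KO cells and 5.92 to 6.17 CPM in WT cells. Gbp7 was at 1.10 and 1.29 CPM in KO1 cells, 1.26 and 1.10 CPM in KO2 cells and 3.64 and 3.68 CPM in KO3 cells, against 3.45 and 3.55 CPM in WT cells. KO1 and KO2 cells lay below both WT libraries and KO3 cells above them, and the pooled log2 fold change was -0.79 ± 0.51 (SE), adjusted p 0.318 by edgeR. Gbp2 was at 0.447 to 2.17 CPM in KO cells and 0.562 to 1.05 CPM in WT cells, and Tgtp2 at 0.335 to 1.33 CPM in KO cells and 1.10 to 1.59 CPM in WT cells, from 6.87 to 30.3 estimated counts a library. Iigp1 had 0 counts in all 6 KO cell libraries and at most 1 in a WT cell library. Gbp6 (Gm43302) had 0 counts in all 8, and Gbp6 and Gbp3 had at most 2 and 9 counts.

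The difference between the KO effect in tumours and that in cells was tested in a fit of all 21 libraries. It passed for both Tgtp genes, whose log2 fold change in tumours minus that in cells was 2.20 ± 0.52 (SE) for Tgtp1, adjusted p 0.0463 by edgeR, and 1.90 ± 0.44 (SE) for Tgtp2, adjusted p 0.0417 by edgeR. Of the 15173 genes tested 0.863% had a higher effect in tumours by this test and 0.962% passed in either direction. For the summed Tgtp pair the difference was 2.20 ± 0.45 (SE), adjusted p 0.0166 by edgeR. The level of Tgtp1 was thus below WT in KO cells and, on average, above WT in KO tumours. No row passed with the length-scaled table, without a filter on low counts or without line KO2, and with the length-scaled table Tgtp2 in KO over WT cells was at 0.72, in place of -0.76 log2. In the fit as first described no other row passed, and Irgm2 was nearest, at 1.08 ± 0.33 (SE), adjusted p 0.143 by edgeR. Both calls were lost without WT cells 1 or WT cells 2, without KO1 cells 2, KO2 cells 1, WT tumour 1, WT tumour 2, KO3 tumour 2 or KO3 tumour 3, and 1 of the 2 calls without any one of 10 other libraries.

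**Figure D3:**
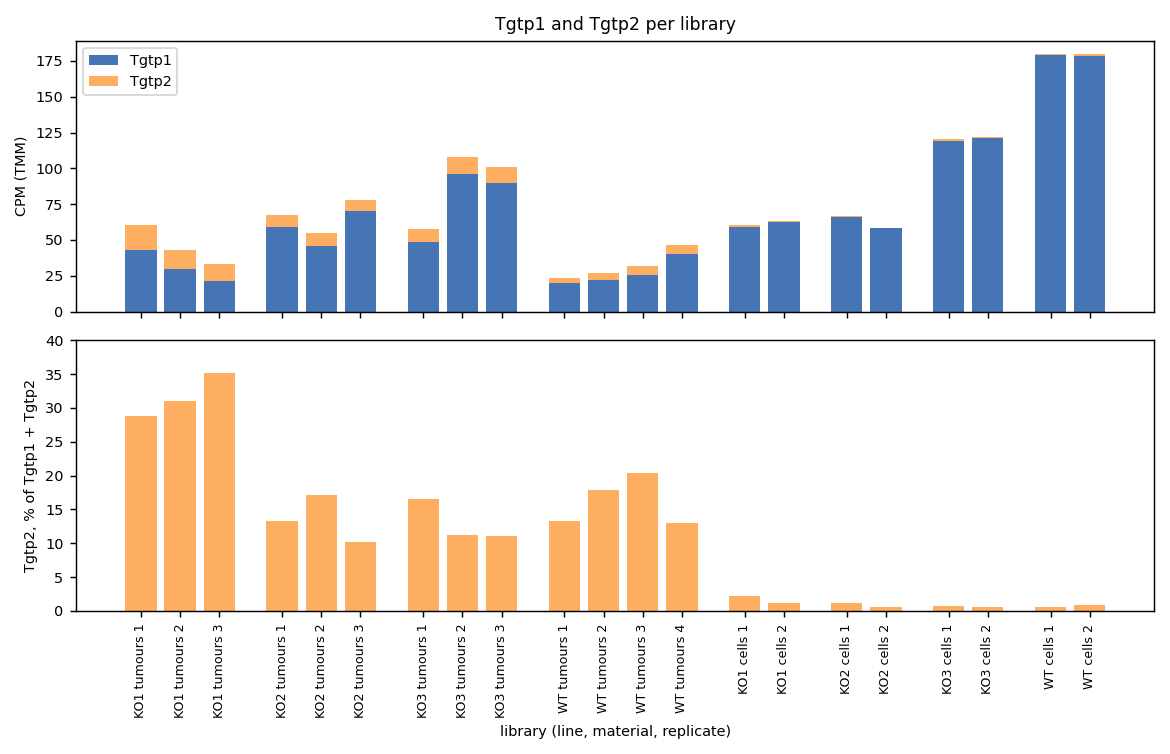
Upper panel, CPM of Tgtp1 with Tgtp2 stacked on it in each library, on an axis from 0. Lower panel, the share of Tgtp2 in the sum as percent; it is 28.8% to 35.2% in KO1 tumours, 10.2% to 20.4% in the other tumours and at most 2.21% in cells.

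The share of Tgtp2 in the Tgtp reads separated KO1 tumours from the rest. It was 31.7% ± 3.24 in KO1 tumours, 13.5% ± 3.45 in KO2 tumours, and 12.9% ± 3.11 in KO3 tumours (SD over 3 libraries a group), against 16.1% ± 3.64 in WT tumours (SD over 4), with no overlap between KO1 and the others. No test was made of this share, and reads that both genes hold are divided by estimate. In KO1 tumours Tgtp2 was at 1.41 ± 0.24 log2 over WT (SE) and Tgtp1 at 0.16 ± 0.31, and their sum did not pass. In KO3 tumours Tgtp1 was at 1.5 ± 0.31 and Tgtp2 at 1.06 ± 0.24.

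Each KO line was also set against the same WT libraries, which the 3 comparisons therefore share. In KO1 tumours 6 rows were higher (Irgm1, Irgm2, Igtp, Tgtp2, Gbp3 and Gbp7), with log2 fold changes of 0.64 to 1.41, against 3.71% of all genes higher, 6.86% lower and 10.6% in either direction. In KO3 tumours 3 were higher (Irgm1 at 0.79, Igtp at 0.85 and Tgtp1 at 1.5), against 0.545% higher, 0.69% lower and 1.24% in either direction. With read-sharing genes summed, Tgtp1 with Tgtp2 was at 0.45 ± 0.29 log2 (SE) in KO1 over WT tumours, adjusted p 0.349 by edgeR, so the KO1 call of Tgtp2 was lost, and at 1.43 ± 0.28 in KO3 over WT tumours, adjusted p 0.0292. Igtp with Irgm2 had an adjusted p of 0.0180 by edgeR in KO1 and of 0.0539 in KO3 tumours, where the call of Igtp was lost. In KO2 tumours none of the 11 passed by edgeR, against 0.898% higher, 2.15% lower and 3.04% in either direction, and 5 had an unadjusted p under 0.05. The log2 fold changes of KO2 over WT tumours ran from -0.03 for Gbp2 to 1.11 for Tgtp1, and their median was 0.40, against 0.80 for KO1 and 0.75 for KO3. The lines themselves were not shown to differ in tumours: a test over KO1, KO2 and KO3 passed for 0 of 11 rows by edgeR, with 3 at an unadjusted p under 0.05 and 2 rows past the threshold by DESeq2, and 2.95% of all genes passed. The counts moved with single libraries. Without WT tumour 2, KO1 tumour 1 or KO1 tumour 2 the KO1 count was 1, without WT tumour 3 or 4 it was 5, and without WT tumour 1 it was 9. Without WT tumour 2 or 3 or KO3 tumour 2 or 3 the KO3 count was 0, without WT tumour 4 it was 2, and without WT tumour 1 or 4 the KO2 count was 1. Without WT tumour 1 the test over lines passed for 1 row.

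**Figure D4:**
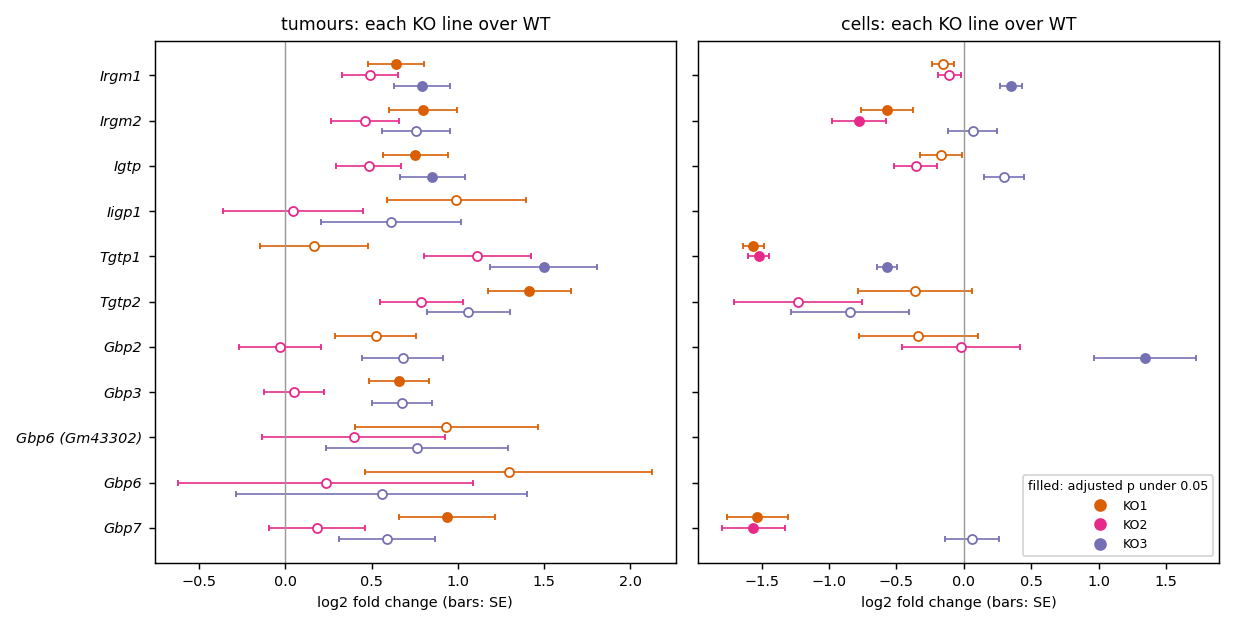
Log2 fold change of each row in each KO line over WT, with its standard error, in tumours (left) and in cells (right). Filled points had an adjusted p under 0.05 (edgeR); in tumours 6 are filled for KO1, 0 for KO2 and 3 for KO3, and in cells the values of KO3 lie right of those of KO1 and KO2 in 6 of 7 rows tested.

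In cells the libraries of the KO lines did differ. Whether the 2 libraries of a line came from separate cultures is not given, so a difference of line and one of culture cannot be told apart. The test over lines passed for 6 of the 7 rows tested (Irgm1, Irgm2, Igtp, Tgtp1, Gbp2 and Gbp7), against 30.3% of all genes, and in each of the 6 the highest line was KO3. The log2 difference between the highest and the lowest line was 0.50 for Irgm1, 0.66 for Igtp, 0.84 for Irgm2, 0.99 for Tgtp1, 1.62 for Gbp7 and 1.68 for Gbp2, with adjusted p from 3.28e-06 to 0.0145 by edgeR. Against WT cells, KO1 and KO2 cells were each lower in 3 rows, Tgtp1, Irgm2 and Gbp7, against 20.5% (KO1) and 20.2% (KO2) of all genes lower. In either direction 38.2% of all genes passed for KO1, 37.7% for KO2 and 24.4% for KO3, with 17.7% (KO1) and 17.4% (KO2) higher. Summed with Igtp, Irgm2 was at -0.34 ± 0.14 log2 (SE) in KO1 cells, adjusted p 0.0727 by edgeR, so its KO1 call was lost, and at -0.54 ± 0.15 in KO2 cells, adjusted p 0.0123. Tgtp1 was lower by edgeR in all lines, with log2 fold changes of -1.56 ± 0.08, -1.52 ± 0.08 and -0.57 ± 0.08 (SE) in KO1, KO2 and KO3 cells. Gbp7 was at -1.53 ± 0.23 and -1.56 ± 0.24 in KO1 and KO2 cells and at 0.06 ± 0.20 in KO3 cells, where it did not pass. KO3 cells were higher in 2 rows, Irgm1 at 0.35 ± 0.08 and Gbp2 at 1.34 ± 0.38, against 10.4% of all genes higher, and lower in 1, against 14.1%. Without a library of KO3 cells the test over lines passed for 5 rows (replicate 1 left out) and 4 rows (replicate 2). Without KO3 cells 1, KO3 cells 2, WT cells 1 or WT cells 2 the count of rows higher in KO3 cells was 1, 0, 1 and 1.

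Tumours were then set against cells of the same genotype, on the fit of all 21 libraries. In KO tumours 9 rows were higher than in KO cells and none lower, and in WT tumours 9 were higher than in WT cells and 2 lower. Of all genes 43.8% were higher, 30.4% lower and 74.3% either between KO tumours and KO cells, and 32.9% were higher, 23.1% lower and 56% either between WT tumours and WT cells. Iigp1 averaged 16.5 ± 8.93 CPM in KO tumours (SD, n = 9), and with 0 counts in KO cells it was at least 746-fold higher there, taking 3 counts over the 6 cell libraries as the floor. Gbp6 (Gm43302) was likewise at least 177-fold higher in KO tumours than in KO cells and at least 32-fold higher in WT tumours than in WT cells, floors that cover counting error only. Gbp3 was higher by 5.64 ± 0.32 in KO tumours over KO cells and by 5.00 ± 0.54 in WT tumours over WT cells on the log2 scale (SE), Gbp2 by 3.74 ± 0.32 and 3.85 ± 0.57, and Tgtp2 by 3.84 ± 0.26 and 1.94 ± 0.40. Irgm2, Igtp and Gbp7 were higher by 2.49, 1.79 and 2.87 in KO tumours over KO cells and by 1.42, 1.01 and 1.46 in WT tumours over WT cells.

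Irgm1 and Tgtp1 went the other way in WT. Irgm1 was lower in WT tumours than in WT cells by a log2 fold change of -0.83 ± 0.19 (SE), adjusted p 0.000845 by edgeR, and Tgtp1 by -2.73 ± 0.44 (SE), adjusted p 2.76e-05 by edgeR. In KO tumours against KO cells they were at -0.20 ± 0.12 and -0.54 ± 0.28 (SE) and did not pass, with adjusted p of 0.119 and 0.0840 by edgeR. Without KO3 tumour 2 or KO3 tumour 3, 1 row was lower in KO tumours than in KO cells. The Tgtp sum was lower in WT tumours than in WT cells as well, at -2.49 ± 0.38 (SE). Without WT cells 1, WT cells 2 or WT tumour 3 the rows higher in WT tumours than in WT cells numbered 7, 8 and 8, and the rows lost were Gbp6 and Gbp7.

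The genes around the GTPases were compared in KO and WT tumours, where 1.28% of all genes tested were higher and 2.37% lower. Of 20 rows of 19 other IRG, GBP and very large GTPase genes, 15 were tested and 1 was higher, Gm4070, a very large GTPase gene, at 1.01 ± 0.24 log2 (SE), adjusted p 0.0319 by edgeR, and none was lower. The median log2 fold change of those tested was 0.72. Of 16 genes of interferon-gamma signalling 14 were tested and 0 passed by edgeR, with a median of 0.24. Ifng itself had 0 to 2 counts a library in KO tumours and 0 or 1 in WT tumours and was at 0 in all cell libraries, so it passed no filter. The receptor genes Ifngr1 and Ifngr2 had log2 fold changes of -0.17 ± 0.11 and 0.07 ± 0.24, the kinase genes Jak1 and Jak2 of -0.02 ± 0.10 and 0.40 ± 0.15, and the transcription factor gene Irf1 of 0.53 ± 0.15 (SE), with adjusted p from 0.0654 for Irf1 to 0.931 for Jak1 by edgeR. In cells Ifngr2 was low, at 0.244 to 2.93 CPM in KO cells and 0.420 to 0.469 CPM in WT cells, against 5.63 to 9.55 CPM in KO tumours and 4.37 to 12.9 CPM in WT tumours.

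Of 24 other interferon-gamma-induced genes, which serve antigen presentation, the immunoproteasome and chemokines, 23 were tested and 0 passed by edgeR in tumours, with a median log2 fold change of 0.13. Of 16 type I interferon-stimulated genes all were tested and 6 were higher in KO tumours, against 1.28% of all genes, with a median of 0.60. The 4 with the smallest p were Ddx58, an RNA sensor, at 0.58 ± 0.10, Ifit1, an inhibitor of viral translation, at 0.81 ± 0.16, Herc6, an ISG15 ligase, at 0.74 ± 0.15, and Oasl2 at 0.75 ± 0.17 (log2, SE), with adjusted p of 0.00786, 0.0190, 0.0226 and 0.0273 by edgeR. Without WT tumour 2 the tumour test called 154 genes in all, and with libraries summed per line it called none. How many of the 6 type I calls remain without WT tumour 2 is not given here. Of 10 genes of ATG8 conjugation, the autophagy machinery by which IRG and GBP proteins are placed on vacuoles, none passed in tumours, with a median of -0.23. In cells 1, Atg3, was lower, against 9.76% of all genes lower. The numbers of genes at an unadjusted p under 0.05 in tumours were 10 for the other IRG, GBP and very large GTPases, 12 for the type I interferon-stimulated genes, 8 for interferon-gamma signalling, 2 for the other interferon-gamma-induced genes and 4 for ATG8 conjugation. In cells 0 genes of the other 4 lists passed by edgeR, and 0 of the other GTPases, 4 of interferon-gamma signalling, 5 of the other interferon-gamma-induced genes and 1 of the type I interferon-stimulated genes had an unadjusted p under 0.05.

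**Figure D5:**
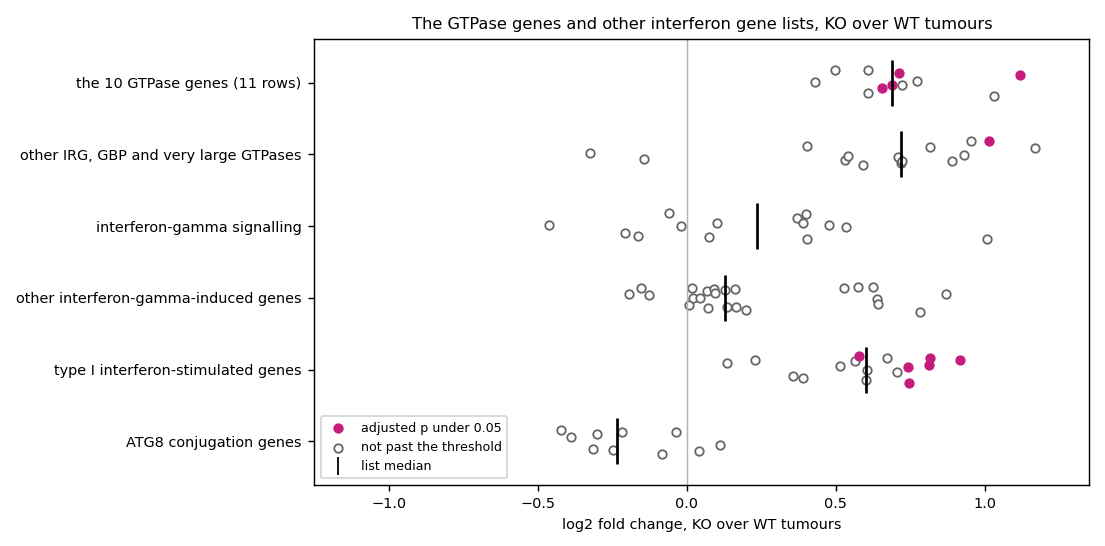
Log2 fold change, KO over WT tumours, of every tested gene in the GTPase rows and in 5 other lists, with the list median as a bar. Filled points had an adjusted p under 0.05 (edgeR), 4 in the GTPase rows, 1 among the other GTPases and 6 among the type I interferon-stimulated genes.

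Likeness of pattern was taken over the 13 tumours. It was Pearson's r between a gene's log2 CPM and the mean of the standardised log2 CPM of the 11 rows, ranked over 10160 genes, and it describes libraries in which both genes share depth and cell makeup. Genes with predicted or Rik names and those below a mean log2 CPM of 2 were left out. Among the highest were Herc6 (r = 0.947), the death ligand gene Tnfsf10 (0.926), Parp14 (0.919), the kinase gene Stk38 (0.918), Ifit1 (0.912), Ddx58 (0.911), the IRG gene Ifi47 (0.903), Nqo2 (0.902) and Pyhin1 (0.898). Within the 9 KO tumours alone r ran from 0.785 for Ddx58 to 0.928 for Parp14.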

How the data were processed

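RNA-seq libraries were polyA-selected and stranded, with 50-base paired reads, per the labels' protocols. The submitters' processing notes name Salmon 1.5.2, Trim Galore 0.6.7, STAR and the build GRCm38, and the annotation release is not given in the sources used here. The deposited values are estimated counts per gene made by the authors, of which 7.96% to 10.2% per library are not whole, and they were rounded. The length-scaled table deposited by the authors holds estimated counts too and served as an alternative.

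Genes were filtered with filterByExpr and tested with edgeR 4.0.16 (quasi-likelihood, TMM, Benjamini-Hochberg over all genes tested, threshold 0.05) in R 4.3.3, in 13 comparisons. A standard error is the log2 fold change divided by the root of its F statistic. CPM uses TMM over all 21 libraries, and CPM per kilobase uses the union of GENCODE M21 exons. Figures were drawn with matplotlib 3.10.9. The fits were also run on simulated data, in which libraries were drawn independently of each other. Effects shared by the libraries of a KO line were not simulated for the pooled KO tests, so those p-values were not checked for them. Alternatives included DESeq2 1.42.0, RLE size factors, no filter, summed read-sharing genes, a replicate block and each library or line left out.

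All 10 genes are named in every comparison; of the other lists, the up to 4 genes with the smallest p among those called, set signalling genes and the 10 most alike, of which 1 gene is not reported here. The members and lists were chosen with earlier results of these data known. The labels do not say that replicates came from separate cultures, and p-values then cover only the spread among the libraries, which may be technical. Replicate pairs differed by more than sampling noise, with a chi-square per degree of freedom of at least 7.98. Intervals were not computed for single libraries, and bounds cover counting error only.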

Additional observations from a re-analysis of the deposited data

Results flagged for a closer look

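Some single tumours stood apart within their group. KO1 tumour 1 had the highest Iigp1 of the 9 KO tumours, at 37.8 CPM against 20.7 CPM in the next, a gap of 0.613 of the range. It also had the highest Gbp7, at 29.7 CPM against 17.7 CPM in the next, a gap of 0.602, and the highest Gbp6, at 2.48 CPM against 0.918 CPM in the next, a gap of 0.792. WT tumour 1 had the highest Gbp6 (Gm43302) of the 4 WT tumours, at 6.01 CPM against 1.39 CPM in the next, a gap of 0.901. These are 4 of 31 groups of values, and chance gives about 1 in 20 such gaps.

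The KO effect differed between tumours and cells for Tgtp1 (log2 2.20) and Tgtp2 (log2 1.90) by the edgeR test of that difference. Libraries of the KO lines differed in cells for 6 genes, with log2 differences between the highest and lowest line of 0.50 for Irgm1, 0.84 for Irgm2, 0.66 for Igtp, 0.99 for Tgtp1, 1.68 for Gbp2 and 1.62 for Gbp7.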

How the results depend on the processing

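The count of 4 GTPase rows higher in KO than in WT tumours was 0 with a replicate block and with libraries summed per line. It was 2 with read-sharing genes summed, without KO2, without KO3 and with WT tumours 3 and 4 summed, as their descriptions share a number. With read-sharing genes summed, Igtp and Irgm2 count as 1, which passed, and the Tgtp pair did not pass. It was 1 without WT tumours 1 and 4, and 0 to 4 with 1 library left out. Replicate numbers did not pair the samples: same-numbered tumours of different groups had correlations of deviations of -0.39 to 0.16. In cells the count of 1 lower row was 0 with the block, without KO1, without KO2 and with sums per line, 3 without KO3 and with lines as groups, and 0 to 1 with 1 library left out. The 2 rows with a higher effect in tumours than in cells were 1 with RLE size factors and with read-sharing genes summed, 0 without a filter, with the length-scaled table, with the block and without KO2, 4 without KO3, and 0 to 2 with 1 library left out. With genes summed, Tgtp1 and Tgtp2 count as 1, and that pair passed with an adjusted p of 0.0166 by edgeR. Over lines in tumours, 0 rows by edgeR were 2 by DESeq2 and 0 to 1 with 1 library left out. With 1 library left out the KO1, KO2 and KO3 tumour counts were 1 to 9, 0 to 1 and 0 to 4, the KO3 cell count of higher rows 0 to 1, and rows lower in KO tumours than KO cells 0 to 1.

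Some directions turned (log2). Irgm1 in cells was -0.0054 with the length-scaled table, -0.13 without KO3 and -0.022 to 0.092 with 1 library left out. Igtp in cells was 0.015 without KO1, 0.082 without KO2 and -0.15 to 0.018 with 1 library left out. In cells Tgtp2 was 0.72 with the length-scaled table and Gbp2 was -0.18 without KO3. For tumours minus cells, Gbp2 was 0.46 without KO3, and Gbp6 was 0.30 with the length-scaled table and 0.085 without KO2. With 1 library left out that difference ran from -0.61 to 0.29 for Gbp2, -0.22 to 1.22 for Gbp3 and -2.51 to 0.79 for Gbp6. The values above were not called. The called Tgtp2 values were 1.94 in WT tumours over WT cells and 3.84 in KO tumours over KO cells. The sum of Tgtp1 and Tgtp2 went the other way, at -2.49 and -0.28. Tgtp2 took at most 2.21% of that sum in cells. The cause was not tested.

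Over all genes, the 518 calls in tumours were 1088 by DESeq2, 332 without a filter, 98 with the block, 297 without KO1, 123 without KO2, 0 with sums per line, 1118 with lines as groups, 246 with WT tumours 3 and 4 summed, 89 without WT tumours 1 and 4, and at least 154 with 1 library left out. The 1808 calls in cells were 1162 without KO1, 1137 without KO2, 4315 without KO3, 38 with sums per line, 4780 with lines as groups and at least 378 with 1 library left out. The 146 calls for tumours minus cells were 322 by DESeq2, 68 with the block, 83 without KO2, 543 without KO3 and at least 42 with 1 library left out. The 427 calls over lines in tumours were 1263 by DESeq2, and the 3713 over lines in cells were 2271 with the length-scaled table.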
